A study of Mus musculus with 183 samples.

Results

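The mitochondrial genome encodes 37 genes, and all 37 were found among the 53380 genes of the half-life count table by the mt- at the start of their symbol. They are 13 mRNAs, 2 rRNAs and 22 tRNAs. The table holds 47 RNA-seq libraries of mouse embryonic stem cells, mixed from the 129 and C57BL/6 strains and grown on gelatin in serum with LIF. Cells of 2 lines, each a single clone, were either left alone (day 0) or given 0.1 µM 4-hydroxytamoxifen (4OHT), with libraries made at day 4. Clone 5F carried Cre-ERT2 at 1 Rosa26 allele and Skiv2l alleles flanked by loxP sites. Clone 7E was Aven-/-, with Cre-ERT2 at 1 Rosa26 allele and BirA-V6 (BirA-V5 in the study's list of lines), a tagged biotin ligase, at the other. Its label names Skiv2l alleles tagged with 3xFLAG-Avi, and the study's methods describe floxed Skiv2l in these cells. At each clone and day the cells received DMSO (mock, taken as 0 min) or actinomycin D, which blocks transcription, for 120, 240 or 360 min. Each of the 16 combinations had 3 libraries except clone 5F at day 0 and 120 min, which had 2. The replicates are technical by the study's own account, so p-values measure the spread between libraries of a clone and not between clones.

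Mammalian mitochondrial DNA is a small circle transcribed from both strands into long precursors. The tRNAs lie between the coding genes and are cut out by RNases P and Z, which frees the mRNAs and rRNAs. The mRNAs encode core subunits of respiratory complexes I, III, IV and V, and the rRNAs form the mitochondrial ribosome. All of these RNAs stay inside the organelle, where a helicase and phosphorylase pair, SUPV3L1 and PNPT1, degrades RNA and the LRPPRC-SLIRP complex protects mRNAs. The study asked how nuclear-encoded mRNAs decay when the cytoplasmic helicase SKIV2L or its partner AVEN is lost. The mitochondrial transcripts in the same libraries were not its target.

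Whether a mitochondrial transcript could be counted depended on copies of mitochondrial DNA in the nuclear genome. The longest is on chromosome 1, and shorter exact copies lie on other chromosomes. On chromosome 2 they include chrM:5641-5788 and chrM:6048-6163, inside mt-Co1 but outside the chromosome 1 copy. On GRCm38, chr1:24611535-24616184 (minus strand) repeats chrM:6394-11042, a stretch of 4649 nt. The copy differs from the mitochondrial sequence at 1 substitution, T9461C (mitochondrial base first, position on chrM), and by 1 extra A. It starts inside mt-Co1 and ends inside mt-Nd4, as the 2 edges show. Capitals mark the part that both places share.

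mt-Co1, chrM:6358-6429 plus strand: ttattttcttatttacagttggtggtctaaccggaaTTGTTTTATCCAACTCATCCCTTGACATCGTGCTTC
nuclear copy, chr1:24616149-24616220 minus strand: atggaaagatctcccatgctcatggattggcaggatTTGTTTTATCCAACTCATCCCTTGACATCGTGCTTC
mt-Nd4, chrM:11007-11078 plus strand: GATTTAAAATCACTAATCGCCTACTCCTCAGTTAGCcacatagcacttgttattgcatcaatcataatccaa
nuclear copy, chr1:24611499-24611570 minus strand: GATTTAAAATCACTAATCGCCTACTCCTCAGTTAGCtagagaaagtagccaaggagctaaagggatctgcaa

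The extra base lies in mt-Tr, the arginine tRNA, where a run of 8 A on chrM is 9 A in the copy. Capitals mark that run. The stretch opens with the last bases of mt-Nd3, which ends at chrM:9806, and mt-Tr starts at chrM:9808.

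mt-Tr, chrM:9799-9852 plus strand: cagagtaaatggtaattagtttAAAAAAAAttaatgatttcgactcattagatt
nuclear copy, chr1:24612725-24612779 minus strand: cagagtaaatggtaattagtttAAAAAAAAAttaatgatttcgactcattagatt

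Between those points the copy is identical, as in the first bases of mt-Co2 (cytochrome oxidase subunit 2), whose start codon is in capitals.

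mt-Co2, chrM:7013-7072 plus strand, and nuclear copy, chr1:24615506-24615565 minus strand: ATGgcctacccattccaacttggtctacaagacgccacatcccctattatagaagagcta

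Reads that mapped to a single place were kept in the count table, so a read with an exact match in this or a shorter nuclear copy would be dropped. Assuming 50-nt reads, as given for the study's RNA-seq libraries, 5 of 13 mRNAs had no position from which a read could be counted. These were mt-Co2 and mt-Co3 (complex IV), mt-Atp6 and mt-Atp8 (ATP synthase) and mt-Nd4l (complex I). In mt-Nd3, another complex I subunit, 3 of 300 read starts were countable. These 6 mRNAs had at most 2 reads over all 47 libraries, both in mt-Co3. In mt-Co1, the catalytic subunit of cytochrome oxidase, 731 of 1494 starts remained, and in mt-Nd4 503 of 1323. Reads of mt-Co1 could be counted only before the chromosome 1 copy or across its edge, toward the 5′ end. Those of mt-Nd4 could be counted only after the copy or across its edge, toward the 3′ end. Results for both mRNAs below rest on those parts. The complex I subunits mt-Nd1 (906 of 906), mt-Nd2 (905 of 987), mt-Nd5 (1626 of 1761) and mt-Nd6 (456 of 456) and the complex III subunit mt-Cytb (1100 of 1100) kept most or all of theirs. Of the rRNAs, mt-Rnr1 (12S) kept 907 of 907 starts and mt-Rnr2 (16S) 1439 of 1533. The cells' own mitochondrial and nuclear sequences were not tested against the reference.

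**Figure D1:**
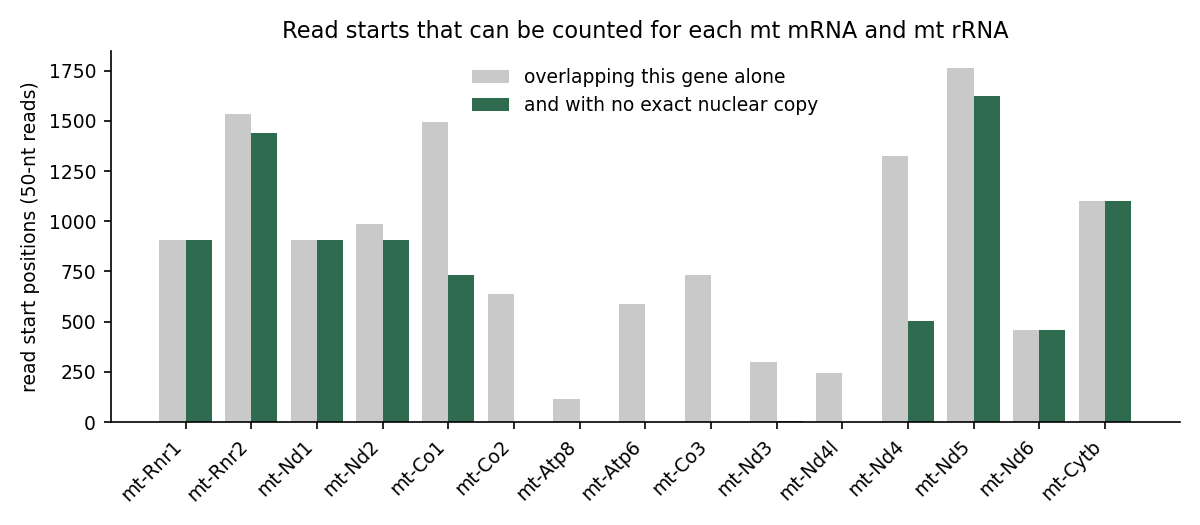
Read start positions per gene (y axis, number of 50-nt read starts) for the 13 mitochondrial mRNAs and 2 rRNAs in chromosome order. Grey bars count starts that overlap 1 gene alone, and green bars those that also lack an exact copy in the nuclear genome. From mt-Co2 to mt-Nd4l no green bar can be seen, and mt-Co1 and mt-Nd4 keep 731 and 503 starts.

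In all, 12 of the 37 genes were at 0 in every library: 5 mRNAs (mt-Co2, mt-Atp8, mt-Atp6, mt-Nd3 and mt-Nd4l) and 7 tRNAs. The filter on low counts kept the 7 mRNAs named above with over 100 countable starts, both rRNAs and between 2 and 4 tRNAs, depending on the comparison. Among these 12, mt-Nd3 had 3 countable starts, mt-Tr had 14 of 21 and the others had none. The tryptophan tRNA mt-Tw had no countable start and yet 77 reads in 17 libraries. A count of 0 is not read as a level here, and the mRNA results below concern 7 of 13 mRNAs.

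Before the results, 12 libraries need to be set apart. They are replicate 1 at 120 min, replicate 2 at 240 min and replicate 3 at 360 min, in each clone and day. The 2 mitochondrial rRNAs made up 0.234 to 0.737% of gene counts in these 12 libraries, 1.33 to 3.60% in the other 23 treated libraries and 0.956 to 1.97% in the 12 mock libraries. They were picked out by their low mitochondrial rRNA, which is given as a description, a median of 0.249 times the share of the others in their group. It was not their only difference, and their mt mRNAs are compared further below. These libraries also had the highest share of ERCC spike-in counts in 12 of 12 groups (median ratio 1.17). Some results for treated libraries are therefore also given without these 12.

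Total gene counts ran from 24440935 to 34114250 per library. Skiv2l, the targeted gene, was counted over its whole length, while the loxP sites flank only some of its exons, so these counts do not look inside the part to be deleted. In mock libraries of clone 7E it fell from 33.6 ± 2.46 CPM (counts scaled to a common library total, mean ± SD, n = 3) at day 0 to 13.1 ± 0.703 at day 4. In clone 5F it was 148 ± 0.290 CPM at day 0 and 143 ± 10.4 at day 4 (edgeR log2 fold change -0.01, adjusted p = 0.914), so a fall in Skiv2l mRNA was not detected in the clone 5F libraries labelled day 4, and whether the exons were deleted there was not measured. Aven was at 35.6 CPM in clone 5F and 2.32 CPM in clone 7E at day 0. All 8 embryonic stem cell markers were above 1 CPM in each mock library, with summed levels of 3257 to 3314 CPM in clone 5F at day 0, 2989 to 3113 at day 4, 3310 to 3434 in clone 7E at day 0 and 2760 to 2849 at day 4. The 5 primitive endoderm markers summed to 104 to 109 CPM in clone 5F at day 0 and 78.6 to 81.6 CPM at day 4, against 11.0 to 12.0 CPM in clone 7E. All 5 were lower in clone 7E, and their part in the differences between clones below was not tested. The 5 fibroblast markers summed to 5.61 to 6.43 and 7.82 to 9.27 CPM in clone 5F at days 0 and 4, and to 2.27 to 2.79 and 5.22 to 6.72 CPM in clone 7E.

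In mock libraries the countable mRNAs differed widely in level. Levels are compared as normalized counts per countable read start. In clone 5F at day 0, mt-Co1 was at 136 and mt-Nd6, the complex I subunit encoded on the opposite strand from the other mRNAs, at 0.545, a 250-fold difference. Between them came mt-Nd1 (59.9), mt-Cytb (29.8), mt-Nd4 (6.01), mt-Nd2 (5.49) and mt-Nd5 (1.98). This order of the 7 mRNAs was the same in both clones at both days. The ranges of mt-Nd4 and mt-Nd2 overlapped in clone 5F at day 0, though mt-Nd4 was the higher within each library. No other neighbouring pair of mRNAs overlapped in any of the 4 sets. In the same group mt-Rnr2 was at 176 and mt-Rnr1 at 32.8 counts per start, although the libraries had been depleted of rRNA. Libraries did not keep the strand, so reads from mt-Nd6 cannot be told apart from reads of the transcript opposite to it, and mt-Nd5 and mt-Nd6 overlap at their ends.

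Of all mt mRNA counts, mt-Co1 held 48.9 to 57.6% in mock libraries, mt-Nd1 22.6 to 28.2% and mt-Cytb 15.4 to 17.8%. After 360 min of actinomycin D, mt-Co1 held 72.7 to 84.4%, mt-Nd1 6.83 to 11.1% and mt-Cytb 6.08 to 11.9%. The ranges of each gene at the 2 times did not overlap.

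Actinomycin D lowered all 7 countable mRNAs, and to very different extents. Whether it stopped mitochondrial transcription fully was not measured, so the values describe loss during treatment. Counts were scaled within each time point by size factors and between time points by an ERCC factor.

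The complex I subunit mt-Nd2 (chrM:3914-4951, plus strand) was lost fastest. In clone 5F at day 0 its normalized counts were 4774, 4982 and 5148 in mock libraries, 473 and 671 at 120 min, 356, 233 and 360 at 240 min and 227, 240 and 198 at 360 min. The mock and treated libraries were far apart, and most of the loss came before 120 min. Over the 4 sets of clone and day, 11.2 to 15.2% of mt-Nd2 was left at 120 min (12.6 to 17.2% without the 12 libraries) and 4.46 to 6.29% at 360 min.

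The mRNA of another complex I subunit, mt-Nd1 (chrM:2751-3707), followed. Its clone 5F day 0 libraries were at 52649, 53167 and 57023 in mock, 13897 and 17972 at 120 min, 8953, 6546 and 9377 at 240 min and 4194, 4305 and 3397 at 360 min. At 120 min 27.8 to 38.0% was left over the 4 sets (31.0 to 41.0% without the 12 libraries), and at 360 min 7.31 to 10.2%. No treated library reached the mock range.

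The mt-Co1 mRNA (chrM:5328-6872) had the most left of the 7 in 3 of 4 sets. It went from 95143, 92249 and 110999 in clone 5F day 0 mock libraries to 68326 and 70096 at 120 min, 45836, 55185 and 49321 at 240 min and 36662, 37493 and 38582 at 360 min. Over the 4 sets 59.6 to 70.3% was left at 120 min and 35.2 to 40.2% at 360 min. Each step was lower than the one before, with no overlap between times in this set.

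In clone 7E at day 4 the same 3 mRNAs fell in the same order. There mt-Nd2 went from 3607, 4475 and 4338 in mock libraries to 272, 254 and 178 at 360 min. For mt-Nd1 the values were 45070, 52740 and 46321 in mock and 5849, 4457 and 3507 at 360 min. For mt-Co1 they were 115010, 125295 and 105856 and then 42080, 36362 and 43357. Of the libraries at 360 min replicate 3, low in mt rRNA, was the lowest for mt-Nd2 and mt-Nd1 and the highest for mt-Co1.

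The complex III subunit mt-Cytb (chrM:14145-15288) went in clone 5F at day 0 from 31186, 31722 and 35305 in mock libraries to 12451 and 16093 at 120 min and 4448, 4491 and 3467 at 360 min. For mt-Nd5 (chrM:11742-13565), a complex I subunit, the values were 3361, 3423 and 2876 in mock, 1312 and 1416 at 120 min and 613, 669 and 626 at 360 min. In neither did libraries of different times overlap. For mt-Nd4 (chrM:10167-11544), also of complex I, they were 3025, 2819 and 3224 in mock, 1814 and 2150 at 120 min and 822, 895 and 781 at 360 min.

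The lowest counts were those of mt-Nd6 (chrM:13552-14070, minus strand). In clone 5F at day 0 they were 235, 260 and 250 in mock libraries, 143 and 146 at 120 min, 109, 78.5 and 93.8 at 240 min and 55.0, 76.0 and 58.1 at 360 min. In clone 7E at day 4 they were 121, 91.6 and 101 in mock, 76.5, 59.5 and 43.9 at 120 min, 68.0, 45.0 and 30.2 at 240 min and 45.8, 44.7 and 32.6 at 360 min. In clone 7E at day 4 libraries of 120, 240 and 360 min overlapped one another and lay below mock.

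At 360 min these 4 mRNAs lay between mt-Nd1 and mt-Co1 in the 4 sets, with 1 exception. For mt-Cytb 12.6 to 15.0% was left at 360 min, for mt-Nd5 19.8 to 28.1%, for mt-Nd4 25.4 to 29.6% and for mt-Nd6 22.7 to 39.2%. The order mt-Nd2, mt-Nd1, mt-Cytb opened the list at 360 min in 4 of 4 sets. The ranges of mt-Nd1 and mt-Cytb overlapped in both day 4 sets, though mt-Nd1 had less left than mt-Cytb within each of these libraries. The mRNA with most left was mt-Co1 in 3 sets and mt-Nd6 in clone 7E at day 4 (39.2% against 35.2% for mt-Co1, with overlapping libraries). The middle of the list, mt-Nd5, mt-Nd6 and mt-Nd4, changed order between sets.

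**Figure D2:**
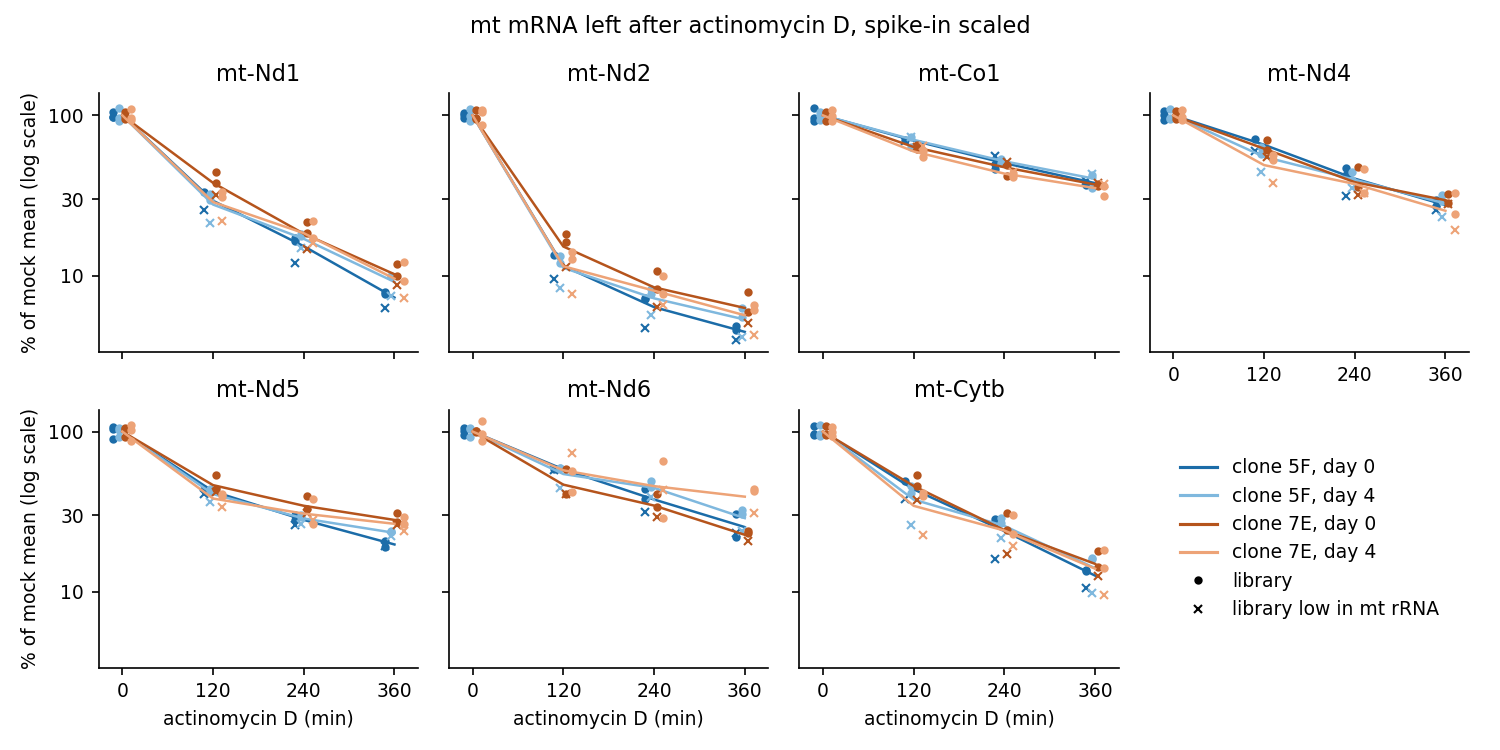
Percent of the mock mean left (y axis, log scale) against minutes of actinomycin D (x axis) for the 7 countable mt mRNAs. Points are libraries, shifted sideways for display, crosses are the 12 libraries low in mt rRNA, and lines join group means. The mt-Nd2 line drops steeply to 11.2 to 15.2% by 120 min and then flattens, while mt-Co1 still has 35.2 to 40.2% at 360 min.

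All 7 mRNAs were lower at 120, 240 and 360 min in 4 of 4 sets (edgeR quasi-likelihood test, adjusted p under 0.05). Most genes were, so the count says little about these members: of all genes tested, 75.7% and 79.8% were lower at 120 min in clone 5F at days 0 and 4, and 80.0% and 83.2% in clone 7E. At 240 min these shares were 85.7%, 86.2%, 87.5% and 89.9%, and at 360 min 89.9%, 90.5%, 91.9% and 94.1%. At 360 min the median log2 fold change of the 7 was -2.34, -2.10, -2.14 and -1.98 in the same order of sets, against -1.33, -1.34, -1.37 and -1.36 over all genes tested. At 120 min it was -1.20, -1.29, -1.11 and -1.39, against -0.78, -0.79, -0.78 and -0.79. The 7 were not all on one side of the median of all genes. At 120 min mt-Co1 lay above it in 4 of 4 sets and mt-Nd4 in both day 0 sets, and at 360 min mt-Co1 lay above it in clone 5F at day 4 and mt-Nd6 in clone 7E at day 4. Without the 12 libraries the count stayed 7 of 7 in each set at 360 min, and at 120 min in every set but clone 5F at day 0. That set was left with 1 library at 120 min, so no count is given for it.

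In clone 5F at day 0 the edgeR log2 fold change at 360 min was -4.49 (SE 0.199, adjusted p = 1.61e-15) for mt-Nd2 and -1.40 (SE 0.0843, adjusted p = 4.04e-13) for mt-Co1. With TMM in place of the spike-ins the median of all genes is set near 0. Relative to it, mt-Nd2 stayed lower, and mt-Co1 was at 0.28 at 120 min in clone 5F at day 4 (edgeR adjusted p = 0.0104). On the TMM scale mt-Co1 was above mock at 120 min in 4 of 4 sets (0.039 to 0.28).

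Half-lives from a straight line through ln(normalized count + 1) over all 4 times again put mt-Nd2, mt-Nd1 and mt-Cytb first, in that order, in each set. They were 81.9 to 93.2 min for mt-Nd2, 96.7 to 110 min for mt-Nd1 and 121 to 132 min for mt-Cytb. They rose to 156 to 203 min for mt-Nd5, 187 to 201 min for mt-Nd4, 177 to 275 min for mt-Nd6 and 241 to 273 min for mt-Co1. The longest, mt-Nd6 in clone 7E at day 4, was 275 min with a 1 SE range of 223 to 358 min. Without the 12 libraries low in mt rRNA it was 298 min. The ranges over the sets were then 79.3 to 91.5 min for mt-Nd2, 127 to 138 min for mt-Cytb and 229 to 263 min for mt-Co1.

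Loss was faster before 120 min than after it. From 0 to 120 min the mt-Nd2 half-life was 37.7 to 43.8 min, and from 120 to 360 min it was 182 to 242 min. For mt-Nd5 the same values were 86.6 to 108 min and 220 to 459 min, and for mt-Nd1 64.3 to 85.2 min and 119 to 151 min. The early and late ranges of mt-Co1 were 161 to 236 min and 274 to 315 min. For 6 of the 7 mRNAs the 4 late values all lay above the 4 early ones, and mt-Nd4 was the exception (114 to 196 min and 195 to 251 min). The median over all genes tested also fell more before 120 min than after it (-0.78 at 120 min and -1.33 at 360 min in clone 5F at day 0), and every gene shares the spike-in factor of a time point.

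**Figure D3:**
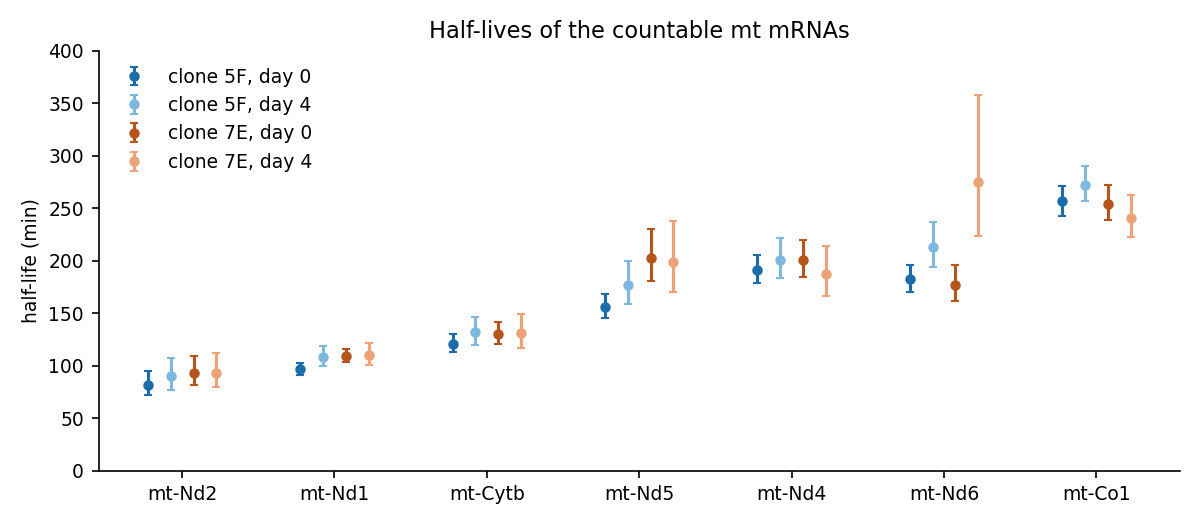
Half-life in minutes (y axis) of each countable mt mRNA (x axis) by clone and day, from a line through all 4 times. Bars are ± 1 SE of the slope, turned into minutes. The points of mt-Nd2, mt-Nd1 and mt-Cytb sit between 81.9 and 132 min, and those of mt-Co1 between 241 and 273 min.

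Loss rates did not differ detectably by day or clone in the test without a replicate block, which compared slopes over time in log2 per hour. Libraries of both clones and days were brought to one scale within each time point, so slopes are relative to the typical gene. A difference in loss shared by most genes would not be seen. None of the 7 mRNAs passed at day 4 against day 0 in clone 5F (of all genes tested 0.205% passed) or in clone 7E (1.03%), and none passed in clone 7E against clone 5F at day 0 (0.0503%) or day 4 (0.307%). At an unadjusted p under 0.05 there were 652 of 17108, 1535 of 16791, 840 of 17893 and 1526 of 17893 of all genes tested. Of the 7 mRNAs 0, 1, 0 and 0 were under it, and DESeq2 also called 0 in each. The 1 was mt-Nd6 in clone 7E, whose slope differed by 0.13 log2 per hour between days (SE 0.0559, 95% interval 0.02 to 0.23, edgeR adjusted p = 0.469). The tightest interval was for mt-Co1 in clone 5F, -0.02 to 0.05 log2 per hour between days. The widest was for mt-Nd2 in clone 7E against clone 5F at day 0, -0.14 to 0.32. In clone 7E, where Skiv2l mRNA fell, the interval for mt-Nd2 between days was -0.23 to 0.20 and for mt-Co1 -0.06 to 0.03.

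Replicate numbers tied libraries together within a time point, most clearly between clones at day 4, so the slopes were also fitted with a replicate block within each time point. This block takes up the bend of the decay that the sets share as well. With it 0, 0, 1 and 0 of the 7 mRNAs passed in the same order of comparisons, where 0.684%, 4.96%, 2.79% and 8.94% of all genes passed. The 1 was mt-Nd5, lost more slowly in clone 7E than in clone 5F at day 0 by 0.083 log2 per hour (SE 0.0214, edgeR adjusted p = 0.0235). Without the block its difference was 0.089 log2 per hour (SE 0.0502, edgeR adjusted p = 1.00), and its half-lives were 203 min in clone 7E and 156 min in clone 5F. In the other blocked comparisons the lowest edgeR adjusted p of the 7 was 0.173 and 0.123 between days in clones 5F and 7E. Between clones at day 4 it was 0.309.

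In mock libraries mt-Nd6 changed most of the 7 mRNAs between days, in clone 7E. Its normalized counts were 217, 217 and 214 at day 0 and 121, 91.6 and 101 at day 4, with no overlap. The edgeR log2 fold change was -1.05 (SE 0.122, adjusted p = 2.53e-07), and it ranged from -1.16 to -0.96 when libraries of any replicate number were removed. In clone 5F mt-Nd6 was at 235, 260 and 250 at day 0 and at 184, 209 and 207 in the libraries labelled day 4. That change was -0.31 (SE 0.0963, edgeR adjusted p = 0.0207), and the call was lost with DESeq2 and when replicate 1, 2 or 3 was left out (adjusted p = 0.122, 0.0501 and 0.0830). The change in clone 7E was larger than that in clone 5F by 0.73 log2 units (SE 0.147, edgeR adjusted p = 0.00154 for the interaction over the 12 mock libraries). Cell type markers moved in the same comparisons. From day 0 to day 4 in clone 7E, 7 of 8 embryonic stem cell markers were lower and 0 higher (median log2 fold change -0.21). Of the 4 tested fibroblast markers 3 were higher (median 1.23), and of 5 primitive endoderm markers 1 was higher and 0 lower. In clone 5F 3 of 8 embryonic stem cell markers were lower and 2 higher (median -0.07). There 2 of 4 fibroblast markers were higher and 2 of 5 primitive endoderm markers lower. Of all genes tested 19.4% were lower and 20.7% higher in clone 7E, and 11.6% and 12.8% in clone 5F. The part of these markers in the mt-Nd6 difference was not tested.

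Few of the 7 mRNAs passed, and counts this small say little against the background. In clone 5F 1 of 7 was lower at day 4 and 0 higher, where 11.6% of all genes tested were lower and 12.8% higher. In clone 7E 2 of 7 were lower and 0 higher, where 19.4% of all genes were lower and 20.7% higher. The second was mt-Nd5 (2796, 2762 and 2465 against 2046, 2373 and 2574). Its libraries overlapped, and its log2 fold change of -0.20 (edgeR adjusted p = 0.0221) went to -0.08 (adjusted p = 0.522) without replicate 1 and did not pass without replicate 2 (adjusted p = 0.0808). For the difference between the clones in the day effect 1 of 7 was lower, against 5.29% of all genes lower and 6.65% higher.

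Between clones, mt-Nd5 was lower in clone 7E at both days and mt-Nd6 at day 4. Clone, tag, Aven genotype and Skiv2l mRNA level cannot be told apart in this comparison. Skiv2l was itself lower in clone 7E, by a log2 fold change of -2.10 at day 0 and -3.42 at day 4. At day 0 1 of 7 mRNAs was lower in clone 7E and 0 higher, where 18.1% of all genes were lower and 18.1% higher. This was mt-Nd5, at 3361, 3423 and 2876 in clone 5F and 2796, 2762 and 2465 in clone 7E (log2 fold change -0.27, SE 0.0736, edgeR adjusted p = 0.00582). At day 4 mt-Nd5 (-0.35, edgeR adjusted p = 5.27e-04) and mt-Nd6 (-0.94, SE 0.111, edgeR adjusted p = 3.25e-07) were lower and mt-Co1 was higher (0.25, SE 0.0665, edgeR adjusted p = 0.00393, but -0.94 when every library was scaled to its own spike-ins), where 20.0% of all genes were lower and 20.3% higher. The mt-Co1 libraries were at 97866, 102207 and 90758 in clone 5F and 115010, 125295 and 105856 in clone 7E, with no overlap.

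These levels are relative to all mRNA of the cell. The mock libraries of clone 7E at day 4 held 0.650% spike-in counts on average, against 0.287 to 0.313% in the other 3 mock groups. When every library was scaled to the spike-ins it held, the median log2 fold change of all genes was -1.11 for clone 7E day 4 against day 0, that of the 7 mRNAs was -1.21 and that of mt-Nd6 was -2.14. Fewer cells and less RNA per cell cannot be told apart in such bulk libraries.

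**Figure D4:**
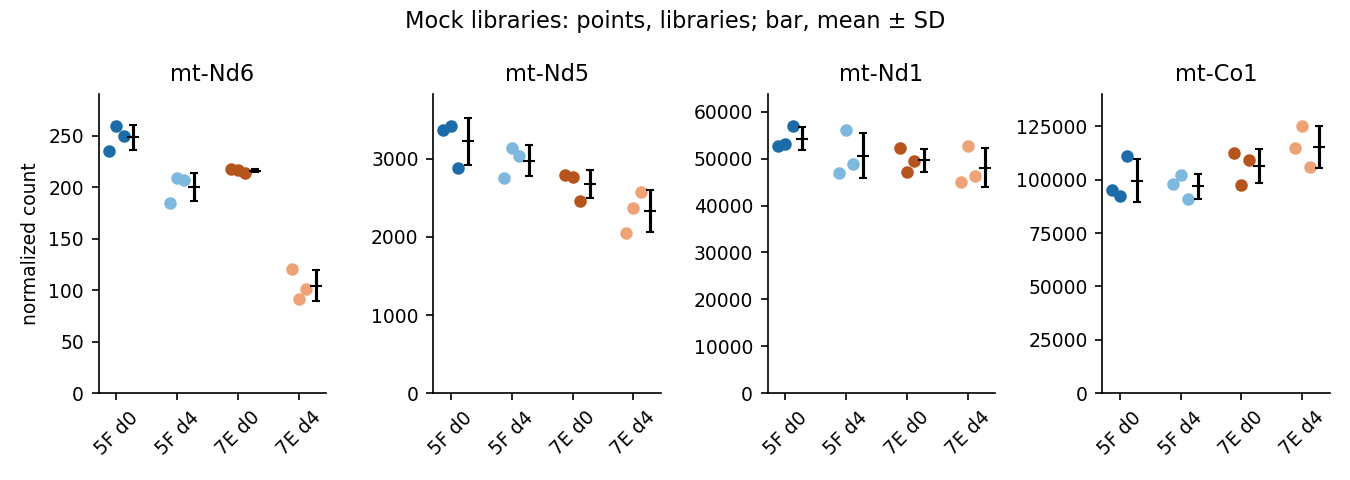
Normalized counts (y axis, from 0) of mt-Nd6, mt-Nd5, mt-Nd1 and mt-Co1 in mock libraries of clones 5F and 7E at days 0 and 4 (d0, d4). Points are the 3 libraries of a group, shifted sideways for display, and bars are the mean ± SD. The clone 7E day 4 libraries of mt-Nd6 sit at 91.6 to 121, below the 184 to 260 of the clone 5F groups and the 214 to 217 of clone 7E at day 0.

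The rRNAs behaved differently from the mRNAs and varied far more. In clone 5F at day 0 mt-Rnr1 was at 27888, 32701 and 28573 in mock libraries, 9752 and 36891 at 120 min, 70152, 3185 and 39717 at 240 min and 17999, 24356 and 7708 at 360 min. The lowest value at each time was the low library. For mt-Rnr2 they were 241171, 267449 and 250800 in mock libraries, 96842 and 277694 at 120 min, 403193, 32890 and 286030 at 240 min and 161539, 198431 and 81776 at 360 min, with the lowest in the same libraries. Without such libraries, mt-Rnr1 values after treatment lay on both sides of the mock range.

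Neither rRNA passed the test at any time in any set among genes that passed the filter on low counts (edgeR adjusted p = 0.141 to 0.975). The call depended on that filter. With every gene with a count tested, both rRNAs passed as lower at 360 min in 4 of 4 sets (log2 fold change -1.11 to -0.70). Under this setting mt-Rnr1 also passed as higher at 120 min in clone 7E at day 0 (0.32, edgeR adjusted p = 1.82e-07). That fold change was also 0.32 among filtered genes (SE 0.948, edgeR adjusted p = 0.761), so only the p-value moved. The libraries were at 14002, 35168 and 115119, on both sides of the mock libraries at 50648, 47379 and 33623. Calls under this setting are therefore not read as changes in the rRNAs. Over the 4 sets group means left 46.4 to 61.6% of mt-Rnr1 and 48.4 to 61.4% of mt-Rnr2 at 360 min, with single libraries from 7.02 to 119% and from 10.8 to 106%. Without the 12 libraries, which are chosen on this very measure, the means were 66.2 to 88.8% and 67.2 to 86.1%, given as a description.

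The ratio of mt-Rnr2 to mt-Rnr1 counts was 5.84 to 8.78 in mock libraries and 4.70 to 8.97 in the other 23 treated libraries. In the 12 low libraries it was 8.03 to 11.0, the highest of the group in 12 of 12. The same libraries were the lowest of their group in 12 of 12 for mt-Nd1 (median 0.762 times the others), mt-Nd2 (0.690) and mt-Cytb (0.678), and in 11 for mt-Nd4, 10 for mt-Nd5 and 9 for mt-Nd6. For mt-Co1 they were the highest in 9 and the lowest in 1 (median 1.06). How these libraries came to differ was not tested.

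In mock libraries of clone 5F both rRNAs rose from day 0 to day 4. The log2 fold change was 0.87 for mt-Rnr1 (SE 0.133, edgeR adjusted p = 6.66e-05) and 0.50 for mt-Rnr2 (SE 0.101, edgeR adjusted p = 0.00102), which DESeq2 put at an adjusted p of 0.0509. For mt-Rnr1 the day 4 libraries were at 34923, 63091 and 64623, so replicate 1 lay close to the day 0 libraries. In clone 7E the mt-Rnr1 mock libraries ran from 33623 to 50648 at day 0 and from 31725 to 85630 at day 4 and overlapped (0.33, edgeR adjusted p = 0.180). Without replicate 1 this difference was 0.73 (adjusted p = 5.22e-04), and without replicate 3 it was -0.29 (adjusted p = 0.00209). As these are libraries depleted of rRNA, the amount left by the depletion is part of each value.

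As a share of gene counts, mt rRNA in clone 5F was 1.00 ± 0.0597% (SD, n = 3) at day 0 and 1.43 ± 0.344% at day 4 (exact permutation test, two-sided, p = 0.2, where 0.1 is the smallest this design can give). The mt mRNA share was 0.701 ± 0.0470% and 0.658 ± 0.0439% (exact permutation p = 0.3). In clone 7E the mt mRNA share was 0.700 ± 0.0434% and 0.694 ± 0.0506% (exact permutation p = 0.9). Over all 12 mock libraries it was 0.627 to 0.756%, and it went to 0.519 to 0.596% at 120 min, 0.430 to 0.506% at 240 min and 0.376 to 0.465% at 360 min. The ranges of 240 and 360 min overlapped, and both lay below the others.

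**Figure D5:**
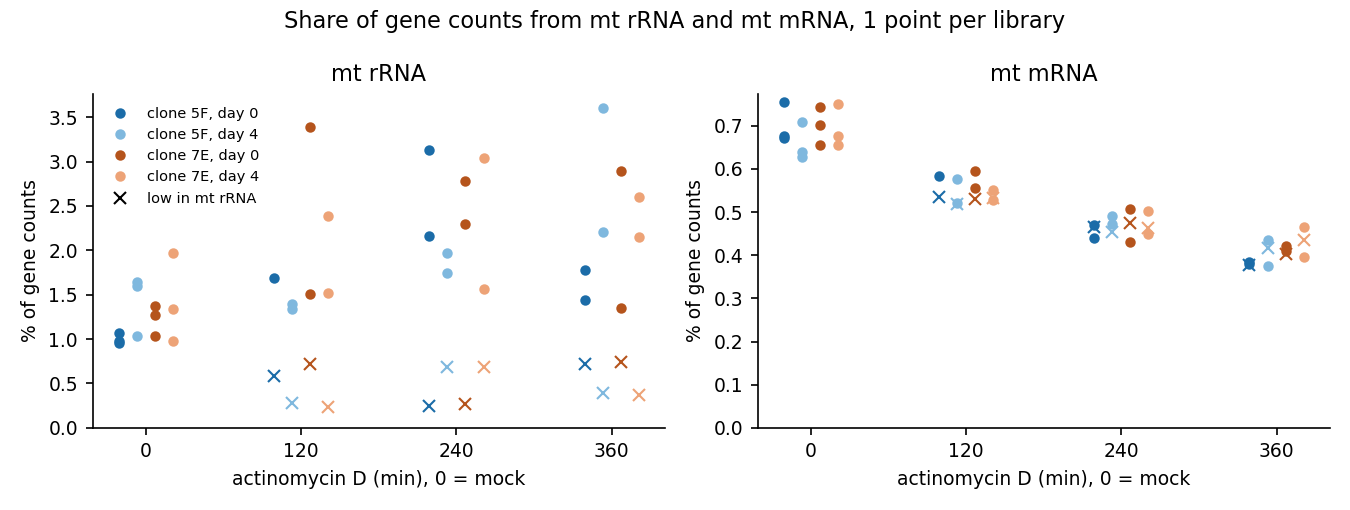
Share of gene counts (y axis, %) from the 2 mt rRNAs (left) and the 13 mt mRNAs (right) in each library, by minutes of actinomycin D (x axis, 0 is mock), with clones and days side by side at each time. Crosses are the 12 libraries at 0.234 to 0.737% mt rRNA. The mt mRNA share falls from 0.627 to 0.756% in mock to 0.376 to 0.465% at 360 min, and the crosses do not stand apart there.

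The tRNAs were hardly captured. Their summed counts were 59 to 133 per library in mock and 7 to 46 after actinomycin D. Mature tRNAs are short and heavily modified, and 7 of the 22 had no countable read start. The most counted was mt-Tm, the methionine tRNA between mt-Nd1 and mt-Nd2. Its normalized counts in clone 5F were 30.2, 26.3 and 12.3 in mock libraries at day 0 and 6.67, 4.02 and 6.30 at 360 min. The ranges did not overlap, and the edgeR log2 fold change was -2.01 (SE 0.323, adjusted p = 5.25e-06). It lay between -2.50 and -1.88 over the 4 sets at 360 min.

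The nuclear genes that serve mitochondrial RNA were then examined as a list of 41, all of which passed the filter. They comprise 13 genes of transcription and mitochondrial DNA upkeep, 21 of RNA processing and modification and 7 of stability, tailing and decay. For the slopes over time, 0 of 41 passed between days in either clone, where 0.205% and 1.03% of all genes tested passed. At an unadjusted p under 0.05 there were 0 and 2 of the 41, and 652 of 17108 and 1535 of 16791 of all genes.

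In mock libraries 14 of 41 were lower and 2 higher at day 4 in clone 5F, and 15 were lower and 2 higher in clone 7E. Of all genes tested 11.6% were lower and 12.8% higher in clone 5F, and 19.4% and 20.7% in clone 7E. The median log2 fold change of the list was -0.07 and -0.11, and that of all genes -0.0050 and -0.0084. Among transcription genes 5 of 13 were lower in clone 5F and 6 of 13 in clone 7E, and 0 were higher, against those same shares of all genes. The largest change in both was Mterf2, of the MTERF family of mitochondrial DNA and RNA binding proteins. It went from 13.6 ± 1.18 to 9.75 ± 0.844 CPM in clone 5F (log2 fold change -0.44, edgeR adjusted p = 0.00153) and from 10.5 ± 0.300 to 6.74 ± 0.225 CPM in clone 7E (-0.60, edgeR adjusted p = 1.92e-05). Its library ranges did not overlap in either clone.

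Other named members changed less. In clone 5F Fastkd1, of the FASTK family of mitochondrial RNA regulators, was lower by a log2 fold change of -0.26, and Mterf4, which acts in mitoribosome assembly with NSUN4, by -0.24. In clone 7E Fastkd5, needed to process mRNAs that lack flanking tRNAs, was at -0.49 and Mterf1a, a termination factor, at -0.37. For the day effect in clone 7E minus that in clone 5F, 5.29% of all genes tested were lower and 6.65% higher. Of the 41 genes 0 were lower and 1 higher. This was Grsf1, an RNA binding protein of mitochondrial RNA granules (0.28, SE 0.0665, edgeR adjusted p = 0.00587). It went from 115 to 105 CPM in clone 5F and from 101 to 113 CPM in clone 7E.

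Between clones, 9 of 41 were lower and 2 higher in clone 7E at day 0, and 10 were lower and 4 higher at day 4. The shares of all genes were 18.1% lower and 18.1% higher at day 0, and 20.0% and 20.3% at day 4, so these counts lay close to or below the background. Tfb2m, the transcription factor that melts mitochondrial promoters, was higher in clone 7E. It was at 5.84 ± 0.239 CPM in clone 5F and 9.64 ± 0.313 in clone 7E at day 0 (log2 fold change 0.76, edgeR adjusted p = 6.60e-07), and at 6.37 ± 0.516 and 10.2 ± 0.773 CPM at day 4 (0.71, edgeR adjusted p = 1.20e-06). The helicase Ddx28 was higher at day 0 (0.50) and Mterf2 lower at both days (-0.34 and -0.50), as was Fastkd5 at day 4 (-0.44).

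Contacts of mRNAs with RNA decay factors were measured in separate experiments by crosslinking and analysis of cDNA (CRAC), in which protein and RNA are joined by ultraviolet light and the bound fragments are sequenced. The authors' table gives, for 7240 mRNAs, pooled counts for each protein as a ratio to the sum for MTR4, the nuclear exosome helicase, SKIV2L, the cytoplasmic exosome helicase, and XRN1, the cytoplasmic exonuclease that degrades from the 5′ end. The same 7 countable mitochondrial mRNAs were in it. These are pooled values with no replicates, so no test was made. A ratio says how reads were split between the proteins and not how much was bound. No control without a tag enters it, so whether reads of mitochondrial mRNAs mark contact with these proteins was not tested.

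For all 7 the MTR4 ratio lay high and the SKIV2L ratio low. The MTR4 ratio was 0.515 to 0.779 (median of all mRNAs 0.319), or percentiles 81.4 to 97.9 of all mRNAs. The SKIV2L ratio was 0.0325 to 0.0769 (median 0.267), or percentiles 0.331 to 4.30. The AVEN ratio was also low, at 0.0148 to 0.0839 (median 0.295). The XRN1 ratio was 0.184 to 0.445 (median 0.337), or percentiles 15.1 to 73.1. Among the 7, mt-Nd1 had the highest MTR4 ratio (0.779) and mt-Nd2 the lowest (0.515), and mt-Nd2 had the highest XRN1 ratio (0.445).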

How the data were processed

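For the half-life experiment the authors deposited raw read counts per gene and per ERCC spike-in for 47 libraries. Per the labels and the study's methods, total RNA with spike-ins in the lysis buffer was depleted of rRNA (Ribozero), made into unstranded TruSeq libraries and mapped with STAR 2.5.0a to GRCm38 with Gencode M16, keeping uniquely mapped reads. The authors deposited the CRAC values as a ratio of pooled counts. Each column of per-sample values was matched to a library by its label (0 unused). Columns with the authors' own fold changes, half-lives or p-values were not used.

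Libraries of a time point were brought to one scale by size factors, and the time points by an ERCC factor each (1, 0.657, 0.538 and 0.441 at 0, 120, 240 and 360 min), from 34 of 92 spike-ins with a mean count of at least 50. Genes passing edgeR's filter were tested with its quasi-likelihood test (edgeR 4.0.16, R 4.3.3), with Benjamini-Hochberg adjustment over all genes tested and a threshold of 0.05. Time and slope tests used all libraries of the clones and days compared. Day comparisons of mock levels used the 6 mock libraries of a clone and clone comparisons all 12, with DESeq2 size factors as offsets. DESeq2 1.42.0 was an alternative. Half-lives came from ln(normalized count + 1) against time, with a pseudocount of 1. Read starts were called countable where a 50-nt read overlaps 1 gene and has no exact second match in the RefSeq copy of GRCm38. The fits and half-lives were tested on simulated data.

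The 13 mRNAs and 2 rRNAs were all named, a tRNA where its mean count was at least 10, and nuclear genes where they passed and were among the 3 with the largest change. Members and lists were chosen with earlier results of these data known. The analysis without the 12 libraries low in mt rRNA and the difference between clones in the day effect were chosen after seeing the data. Replicate numbers come from the labels. Same-numbered libraries deviated together (every correlation over 0.1) between clones in mock libraries, at 0.146 to 0.349 at day 0 and 0.156 to 0.373 at day 4. They also did so between clones at 240 min of day 0 (0.420 to 0.758), between clones at 120, 240 and 360 min of day 4 (0.146 to 0.775), and between the days of clone 5F at 240 min (0.112 to 0.518). The slopes were therefore also fitted with a replicate block within each time point, an alternative chosen after seeing the data. Elsewhere no comparison had every correlation over 0.1 in 3 pairs, though the library low in mt rRNA has the same number in every clone and day of a time point. No 2 libraries of a group agreed within sampling noise (lowest chi-square per gene 2.59).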

Additional observations from a re-analysis of the deposited data

Results flagged for a closer look

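The day effect on mock levels differed between the clones for 2 of the genes followed here, by an interaction test over the 12 mock libraries (edgeR quasi-likelihood test). For mt-Nd6 the effect in clone 7E minus that in clone 5F was -0.73 on the log2 scale (SE 0.147, adjusted p = 0.00154), and it ranged from -0.86 to -0.65 with each replicate number left out (adjusted p = 0.00915 to 0.0289). For Grsf1 it was 0.28 (SE 0.0665, adjusted p = 0.00587). Of all genes tested 5.29% were lower and 6.65% higher in the same interaction. Of 8 embryonic stem cell markers 3 were lower (median -0.13 on the log2 scale). Of 5 primitive endoderm markers 2 were higher (median 0.37), and of 4 tested fibroblast markers 1 was higher (median 0.88). The mock libraries of clone 7E at day 4 also had the higher spike-in share. The part of these in both differences was not tested. Groups of 2 or 3 libraries were too small to test for single outlying libraries.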

How the results depend on the processing

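TMM, which sets the average gene to no change, left 3, 4, 3 and 4 of 7 mRNAs lower at 120 min (clone 5F at days 0 and 4, then clone 7E) and 6, 6, 5 and 5 at 360 min. Under it mt-Co1 turned to 0.23, 0.28, 0.12 and 0.039 at 120 min and to 0.052 at 360 min in clone 5F at day 4, mt-Nd4 to 0.14 and 0.088 at 120 min at day 0 in clones 5F and 7E, and mt-Nd6 to 0.043 at 360 min in clone 7E at day 4. TMM resets the reference by construction.

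In mock libraries 1 mRNA was lower at day 4 in clone 5F, 0 with DESeq2 and 0 to 3 with each replicate number left out. For clone 7E the main count of 2 went to 4 with every gene with a count tested and to 1 to 4 with replicates left out. For clone 7E against 5F at day 0 it went from 1 to 2 with every gene tested and to 1 to 2 with replicates left out. With each library's own spike-ins 7, 4, 7 and 7 mRNAs were lower (clone 7E days, clones at day 0, clones at day 4, and clone 7E minus 5F), with median log2 shifts of all genes of -1.11, -0.17, -1.20 and -1.03. On that scale the clone 7E day difference was -0.98 for mt-Co1, -1.05 for mt-Nd4, -0.76 for mt-Rnr1 and -0.84 for mt-Rnr2. The clone difference at day 4 was -0.94 for mt-Co1, -1.15 for mt-Cytb, -1.17 for mt-Rnr1 and -1.16 for mt-Rnr2, and the difference of the day effects was -0.98 for mt-Nd1 and -0.88 for mt-Co1. The clone 7E day difference of mt-Rnr1 was 0.33 and ran from -0.29 (without replicate 3) to 0.73 (without replicate 1).

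Per spike-in count, mt mRNA at 360 min was 24.7, 25.1, 25.4 and 27.3% of mock, against 54.1, 62.2, 58.8 and 62.2% as a share of gene counts. The median half-life in clone 7E at day 4 was 187 min and 160 to 210 min with a replicate left out, the lowest without replicate 1. The replicate block with 1 term per number over all times left 7 of 7 mRNAs lower at 120 and 360 min, 0 in the slopes, and 1, 2, 1 and 2 in the mock comparisons. It moved mt-Rnr1 in clone 7E against 5F at day 0 past the threshold (0.59, edgeR adjusted p = 0.0316). With a replicate block within each time point 1 mRNA, mt-Nd5, passed in the slope of clone 7E against 5F at day 0 (0.083 log2 per hour, edgeR adjusted p = 0.0235), and slope counts were 0 under every other alternative run. With every gene with a count tested, the rRNAs that had not passed did so in mock libraries for the days of clone 7E (0.33 and 0.25 for mt-Rnr1 and mt-Rnr2), the clones at day 0 (0.56 and 0.29) and the difference of the day effects (-0.54 and -0.25), as well as in most comparisons with mock; the cause was not tested. These added rRNA calls came with the wide spread between libraries described above and are not read as changes. Low counts limit mt-Nd6 and the tRNAs.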
